A study of Homo sapiens with 6 samples.

Results

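The core autophagy machinery was examined in MDA-MB231 cells with and without knockdown of the histone methyltransferase G9a. It was taken as 38 genes: the kinases, lipid kinase subunits, lipid transfer proteins, conjugation enzymes, ubiquitin-like ATG8 proteins and cargo receptors of autophagy, with a few lysosomal and transcriptional partners. A gene was represented by a probe set that the platform's annotation pairs with that gene alone, the brightest on average where several did so. All 38 genes were measured, among 18417 genes in all, and all 38 lay outside the lowest 33.3% of genes by mean level.

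Macroautophagy encloses cytoplasm in a double membrane that fuses with the lysosome. The ULK kinase complex starts the process, the Beclin 1 lipid kinase complex marks the membrane with a phosphoinositide that WIPI proteins bind, and an enzyme cascade couples LC3 and GABARAP proteins to the growing membrane, where cargo receptors dock. G9a, encoded by EHMT2, methylates histone H3 at repressed genes and has been reported to repress MAP1LC3B, WIPI1 and BECN1, which makes these genes the first to be looked at.

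MDA-MB231 is an established human breast cancer cell line with mesenchymal features. The control group was 3 arrays of untreated parental cells, and the knockdown group was 3 arrays of 1 clone with stably reduced G9a. A difference between the groups therefore cannot be told apart from a difference of that clone, or from an effect of the steps that made it. Both were grown in the same medium with serum and harvested in log phase, with no starvation or lysosomal inhibitor named, so the values are messenger RNA levels in fed cells and not autophagic activity. The agent used for the knockdown is not given in the sources used here, and no label states that the replicates were grown as separate cultures. The p-values therefore rest on a spread between samples that may be technical. The measure was total RNA of bulk cells, in which fewer cells of a type and less RNA per cell cannot be told apart.

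Values are log2 intensities as the authors deposited them, and a difference is knockdown minus control with its standard error (SE) from limma, n = 3 arrays per group. A gene was called at an adjusted p of 0.05, with Benjamini-Hochberg adjustment over all 18417 genes. EHMT2 itself read 10.21, 10.27 and 9.93 on the control arrays and 9.66, 9.59 and 9.51 on the knockdown arrays, and its fall to 0.681 of control was called (limma, adjusted p = 0.0259), though 5 of the 6 fits that leave out 1 array gave an adjusted p between 0.0716 and 0.122. The exception was the fit without control replicate 3. Markers of a mesenchymal breast line (VIM, CD44, FN1, MSN and AXL) were on average between 13.32 and 13.36 on all 6 arrays, and none passed. With no overlap, MSN (-0.13) and VIM (-0.04) were lower and AXL (0.06) higher, while CD44 (-0.05) and FN1 (0.07) overlapped. The leukocyte markers PTPRC and CD3E averaged 5.49 to 5.59 in control and 5.66 to 5.77 in the knockdown, neither passing (PTPRC 0.21, with no overlap). The endothelial cadherin gene CDH5 rose by 0.71 (limma, adjusted p = 0.0210), and with PECAM1 (0.42) these 2 endothelial markers averaged 7.61 to 7.99 in control and 8.28 to 8.38 in the knockdown. The luminal marker CDH1, E-cadherin, rose by 0.45 (limma, adjusted p = 0.0177). The 5 other luminal markers did not pass and their groups overlapped: ESR1 (0.07), PGR (0.14), EPCAM (0.15), KRT18 (0.10) and ERBB2 (-0.01). The part of these marker differences in the results below was not tested. CDH5 was not called with control replicate 2 left out (adjusted p = 0.0671), nor without knockdown replicates 1, 2 and 3 (0.0869, 0.0615 and 0.0737). Control replicate 3 and knockdown replicate 1 stood somewhat apart. They were the arrays farthest from the mean of all 6 arrays for 29.1% and 29.4% of all genes. Among the 38 members this held for 9 and 13 genes. That distance includes the difference between the groups.

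Among the 38 genes, 2 fell in the knockdown and none rose: BECN1, the scaffold of the autophagy lipid kinase, and OPTN, a receptor that carries ubiquitinated cargo and damaged mitochondria to LC3 (limma). Over all genes 3.05% were called, 1.78% lower and 1.28% higher, so 2 of 38 (5.26%) is a count close to the background. At an unadjusted p under 0.05, 9 members were lower and 1 was higher, which is 23.7% and 2.63% of them, beside 9.23% and 10.1% of all genes. Groups did not overlap for 12 members that were lower in the knockdown (31.6%) and 3 that were higher (7.89%); over all genes these shares were 12.7% and 14.3%. Over the 12278 genes outside the lowest 33.3% by mean level, where all members lie, they were 16.9% and 16.2%. The members' median difference was -0.02 against 0.03 for all genes and 0.02 for those 12278, and no member moved by 1.5-fold. Single arrays mattered to the calls: no member was called without control replicate 1, control replicate 2 or knockdown replicates 1, 2 or 3, while 7 to 10 were then lower at an unadjusted p under 0.05. The count of members lower with no overlap was 12 to 16 without 1 array, beside 14.8% to 19.6% of all genes. Members higher with no overlap numbered 5 (13.2%) when control replicate 3 or knockdown replicate 3 was left out, beside 23.6% and 19.9% of all genes, and 7 (18.4%) when knockdown replicate 1 was, beside 18.7%.

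**Figure D1:**
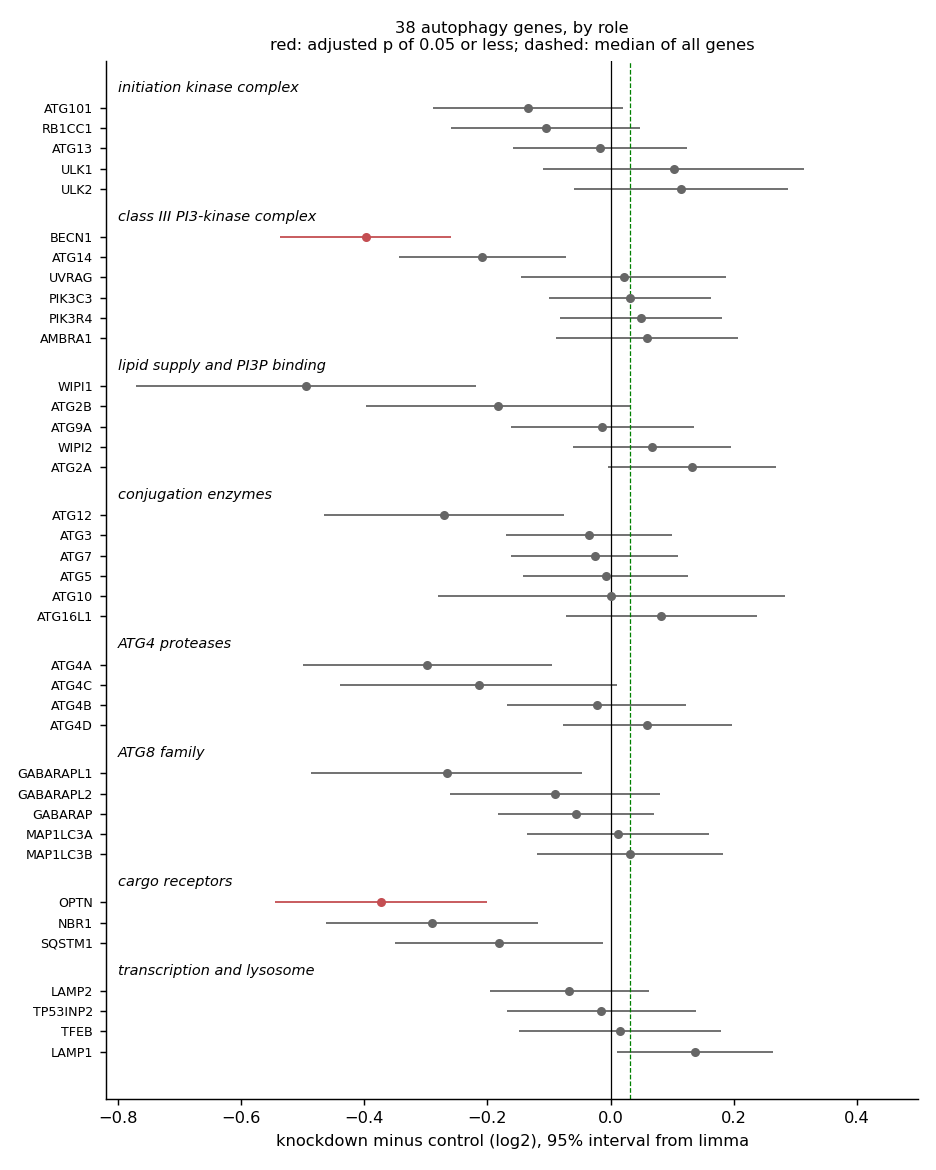
Difference between knockdown and control on the log2 scale for the 38 genes, grouped by role, with 95% intervals from limma. BECN1 (-0.40) and OPTN (-0.37) are the 2 genes called; the dashed line marks the median of all genes, 0.03.

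Of the genes reported as repressed by G9a, none was higher beyond the spread of the arrays. BECN1 read 10.24, 10.28 and 10.17 on the control arrays and 9.79, 9.86 and 9.83 on the knockdown arrays. Every knockdown array lay below every control array, with little spread within either group. BECN1 fell by 0.40 ± 0.06 (SE) on the log2 scale, to 0.759 of control with a 95% interval of 0.690 to 0.835 (limma, adjusted p = 0.0163). Its size held between -0.43 and -0.37 whichever array was left out. The call did not: the adjusted p rose to 0.0599 when control replicate 1 was left out and to 0.0735 when control replicate 2 was, and knockdown replicates 1, 2 and 3 gave 0.0638, 0.0503 and 0.0927 in the same way.

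WIPI1, which binds the phosphoinositide on the forming membrane, had the largest difference of the 38 and did not pass. It read 11.49, 11.53 and 11.96 in control and 11.23, 11.13 and 11.14 in the knockdown. The groups did not overlap, but control replicate 3 lay well above the other control arrays. The difference was -0.50 ± 0.12 (SE; limma, adjusted p = 0.0686). Without control replicate 3 it shrank to -0.35 and passed (limma, adjusted p = 0.0397). It also passed with a variance trend, median centring, array weights or a filter on the lowest 33.3% of genes, and without both control replicate 3 and knockdown replicate 1. WIPI1 did not pass after quantile normalization (limma, adjusted p = 0.0918), with averaged probe sets (0.0682) or with the replicate block (0.102). Nor did it without control replicate 1 or 2 (0.0743 and 0.101) or knockdown replicate 1, 2 or 3 (0.163, 0.143 and 0.209). Its control arrays had an SD of 0.26 and its knockdown arrays one of 0.06.

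MAP1LC3B, encoding LC3B, the most used marker of autophagosomes, read 7.99, 8.01 and 8.10 in control and 8.14, 8.05 and 8.01 in the knockdown. The groups overlapped, and the difference was 0.03 ± 0.07 (SE; limma, adjusted p = 0.835). Its 95% interval ran from 0.920 to 1.13 of the control level, so a rise above 1.13-fold in this probe set's signal lies outside it. The mean level of MAP1LC3B was above that of 41.7% of all genes, beside a median of 70.7% for the members. Whether this level limits its response was not tested. MAP1LC3B has a near-identical copy, MAP1LC3B2, from which its probe set may take signal. Without knockdown replicate 1 the difference was -0.0077.

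**Figure D2:**
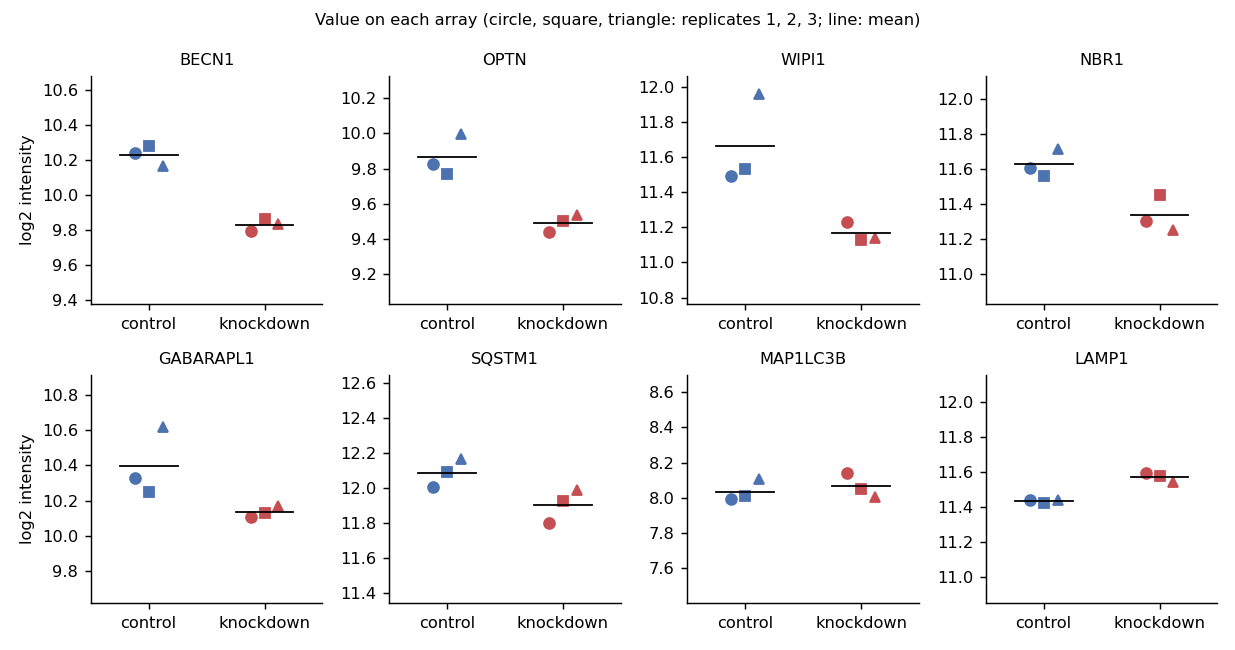
Log2 intensity of 8 members on each of the 6 arrays; circles, squares and triangles are replicates 1, 2 and 3, horizontal lines are group means and every panel spans the same range. The knockdown arrays lie below all control arrays for BECN1, OPTN, WIPI1, NBR1, GABARAPL1 and SQSTM1, overlap them for MAP1LC3B and lie above them for LAMP1.

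The sequence before the transcription start of these 3 genes and of OPTN is shown because they are the members that the comparison turns on, and they differ in base composition. Each is the 250 bases upstream of a start site in RefSeq on GRCh38.p14, 5′ to 3′ on the gene's strand, with each GC box, GGGCGG on either strand, in capitals. BECN1 is at chr17:42823880-42824129 on the minus strand, OPTN at chr10:13099832-13100081 on the plus strand (the first of 2 windows listed), WIPI1 at chr17:68457497-68457746 on the minus strand and MAP1LC3B at chr16:87392086-87392335 on the plus strand.
BECN1: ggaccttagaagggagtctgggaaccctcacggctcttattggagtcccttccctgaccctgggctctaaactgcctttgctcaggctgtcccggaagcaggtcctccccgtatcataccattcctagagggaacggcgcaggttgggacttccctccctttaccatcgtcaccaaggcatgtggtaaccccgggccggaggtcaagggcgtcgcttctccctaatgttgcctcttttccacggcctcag
OPTN: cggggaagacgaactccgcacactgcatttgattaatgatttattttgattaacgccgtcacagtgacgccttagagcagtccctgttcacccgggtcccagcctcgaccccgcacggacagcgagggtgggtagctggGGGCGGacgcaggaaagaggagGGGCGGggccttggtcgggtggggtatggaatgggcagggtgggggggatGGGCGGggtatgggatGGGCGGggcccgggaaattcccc
WIPI1: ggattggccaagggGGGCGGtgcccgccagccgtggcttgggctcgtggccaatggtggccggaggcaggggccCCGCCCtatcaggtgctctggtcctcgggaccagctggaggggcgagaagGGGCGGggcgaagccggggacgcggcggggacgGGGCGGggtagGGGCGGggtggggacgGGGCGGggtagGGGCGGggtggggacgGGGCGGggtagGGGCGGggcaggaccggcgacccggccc
MAP1LC3B: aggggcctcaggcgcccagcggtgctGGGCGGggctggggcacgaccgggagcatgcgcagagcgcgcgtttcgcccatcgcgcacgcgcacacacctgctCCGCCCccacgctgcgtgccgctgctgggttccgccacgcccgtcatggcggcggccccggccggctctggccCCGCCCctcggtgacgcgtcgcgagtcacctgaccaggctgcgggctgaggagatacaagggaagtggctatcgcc
The BECN1 window held no GC box, 11 CG dinucleotides and 58.8% G and C. The WIPI1 window held 9 GC boxes, many of them in a short repeated unit next to the start, and 79.6% G and C, the OPTN window 4 boxes and 63.6%, and the MAP1LC3B window 3 boxes and 74.8%. The other OPTN window, not shown, held 5 boxes and 74.4%, so its composition depends on the window taken. RefSeq windows were matched for 33 of the 38 members, leaving ATG4D, LAMP2, MAP1LC3A, RB1CC1 and UVRAG. A GC box was in 69.8% of their 43 windows and in 42.6% of all 35116 windows of that length. The E-box CACGTG, the centre of the element that TFEB binds at lysosomal and autophagy genes, reads the same on both strands and could share only an end base with a GC box; it was in 3 of the 43 (6.98%), those of LAMP1, ATG3 and ATG14, and in 6.34% of all windows. LAMP1 had 5 of them and a difference of 0.14, while ATG3 and ATG14 had 1 each and differences of -0.03 and -0.21. A match is a description of the letters and not a bound site.

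None of the 5 genes of the initiation kinase complex passed in limma, nor was any at an unadjusted p under 0.05. ULK1 and ULK2, the kinases that receive nutrient signals, had differences of 0.10 ± 0.09 and 0.11 ± 0.08 (SE), the scaffold genes ATG13 and RB1CC1 of -0.02 and -0.11, and ATG101, which stabilises ATG13, of -0.13. With array weights ULK2 was called higher and ATG101 lower. RB1CC1 (FIP200) was the 1 gene of this group whose arrays did not overlap. It read 9.87, 9.92 and 9.89 in control and 9.68, 9.85 and 9.84 in the knockdown, and its adjusted p was 0.429 (limma).

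Within the lipid kinase complex the difference lay in BECN1 and ATG14. ATG14, which directs the complex to the site where autophagosomes form, read 9.51, 9.53 and 9.59 in control and 9.29, 9.35 and 9.37 in the knockdown. All knockdown arrays were lower, and the difference of -0.21 ± 0.06 (SE) did not pass (limma, adjusted p = 0.103). The catalytic subunit PIK3C3 (0.03), its regulatory subunit PIK3R4 (0.05), UVRAG (0.02), which replaces ATG14 in the endosomal form of the complex, and AMBRA1 (0.06), a regulator of Beclin 1, had 95% intervals within -0.15 and 0.21. UVRAG and AMBRA1 changed sign in 1 of the 14 alternative fits each.

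Of the lipid supply genes other than WIPI1, ATG2A (0.13), a lipid transfer protein gene, and WIPI2 (0.07), which recruits ATG16L1, were higher on every knockdown array without passing. ATG2A read 9.57, 9.59 and 9.58 in control and 9.77, 9.71 and 9.65 in the knockdown (limma, adjusted p = 0.272). Its paralog ATG2B lay the other way, at -0.18 ± 0.09 (SE), with knockdown replicate 1 lowest and overlapping groups, and its other probe set gave -0.20. WIPI2 read 9.49, 9.54 and 9.52 in control and 9.60, 9.56 and 9.60 in the knockdown (limma, adjusted p = 0.553). It differed from WIPI1 in sign, but the difference between those paralogs was not tested. ATG9A, the scramblase of the seed vesicles, was at -0.01, with a sign that changed between fits.

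Most of the conjugation enzymes hardly differed. The E1-like ATG7 (-0.03), the E2-like ATG3 (-0.03), ATG5 (-0.01) and ATG10 (0.0014) lay close to 0, and ATG16L1 was at 0.08. ATG12, the ubiquitin-like protein that is joined to ATG5, read 9.13, 8.90 and 9.004 in control and 8.62, 8.85 and 8.75 in the knockdown. Its groups did not overlap, though the gap between them was small, and the difference of -0.27 ± 0.08 (SE) did not pass (limma, adjusted p = 0.131). The 38 tested genes nearest to ATG12 on chromosome 5 had a median difference of -0.10, with 27 of them negative. ATG10, on the same chromosome, was the noisiest of the group, with SDs of 0.21 and 0.18, and ATG10, ATG5 and ATG7 changed sign between fits.

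The ATG4 proteases cut LC3 and GABARAP precursors and later release them from the membrane. ATG4A, the one that prefers GABARAP proteins, read 9.01, 9.05 and 8.88 in control and 8.59, 8.85 and 8.61 in the knockdown. The highest knockdown array came close to the lowest control array, and the difference of -0.30 ± 0.09 (SE) did not pass (limma, adjusted p = 0.114). With array weights, where 3328 of all genes were called, ATG4A passed (limma, adjusted p = 0.00832). ATG4C was at -0.21 with overlapping groups, and ATG4B, which acts most broadly, and ATG4D were at -0.02 and 0.06.

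In the ATG8 family itself the GABARAP genes had negative values, and the LC3 genes had values near 0 whose sign changed between fits. None passed the threshold in limma, and 1, GABARAPL1, was lower at an unadjusted p under 0.05. GABARAPL1 read 10.33, 10.25 and 10.62 in control and 10.11, 10.13 and 10.17 in the knockdown. Control replicate 3 stood above the rest, as it did for WIPI1, and the knockdown arrays were tightly grouped below. The difference was -0.27 ± 0.10 (SE; limma, adjusted p = 0.182), and -0.16 without control replicate 3. GABARAPL1 has a close copy, GABARAPL3, whose signal its probe set may share. GABARAP read 13.24, 13.29 and 13.24 in control and 13.19, 13.19 and 13.22 in the knockdown, separate groups with a difference of only -0.06. By contrast GABARAPL2 (-0.09) and MAP1LC3A (0.01) had overlapping groups.

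Cargo receptors, a group of only 3 genes, were the group in which every member was lower on every knockdown array. Over all genes 12.7% were lower with no overlap, and 16.9% of the 12278 brighter genes among which all members lie. OPTN was called, and the 2 other receptors did not pass. OPTN read 9.82, 9.77 and 10.00 in control and 9.44, 9.503 and 9.53 in the knockdown. The lowest control array lay clear of the highest knockdown array, and OPTN fell by 0.37 ± 0.08 (SE), to 0.772 of control with a 95% interval of 0.685 to 0.870 (limma, adjusted p = 0.0397). This call was lost whichever array was left out, with differences from -0.42 to -0.31. The adjusted p became 0.0893, 0.0735 and 0.0526 on leaving out control replicate 1, 2 or 3, and 0.135, 0.101 and 0.130 on leaving out knockdown replicate 1, 2 or 3. It was also lost after quantile normalization (0.0508).

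NBR1, a receptor for aggregates and peroxisomes, read 11.61, 11.56 and 11.71 in control and 11.30, 11.45 and 11.25 in the knockdown. Its groups were separate, and the difference of -0.29 ± 0.08 (SE) did not pass (limma, adjusted p = 0.0805), although it did with a variance trend, array weights or the filter on the lowest 33.3% of genes. SQSTM1, encoding p62, the receptor that is itself consumed by autophagy, read 12.005, 12.09 and 12.16 in control and 11.80, 11.93 and 11.99 in the knockdown. Here the groups nearly touched, and the difference of -0.18 ± 0.07 (SE) did not pass (limma, adjusted p = 0.228).

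Among the transcriptional and lysosomal partners LAMP1, a major glycoprotein of the lysosomal membrane, read 11.44, 11.43 and 11.44 in control and 11.60, 11.58 and 11.55 in the knockdown. Both groups were tight and separate, yet the difference was small, 0.14 ± 0.06 (SE; limma, adjusted p = 0.224). LAMP2, the partner that chaperone-mediated autophagy uses, read 11.16, 11.19 and 11.18 in control and 11.07, 11.15 and 11.11 in the knockdown, lower on every array by a small margin (-0.07; limma, adjusted p = 0.562). TFEB, the transcription factor of lysosomal and autophagy genes, was at 0.01, with a 95% interval of -0.15 to 0.18, and TP53INP2, a nuclear carrier of LC3, at -0.02; both changed sign between fits.

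**Figure D3:**
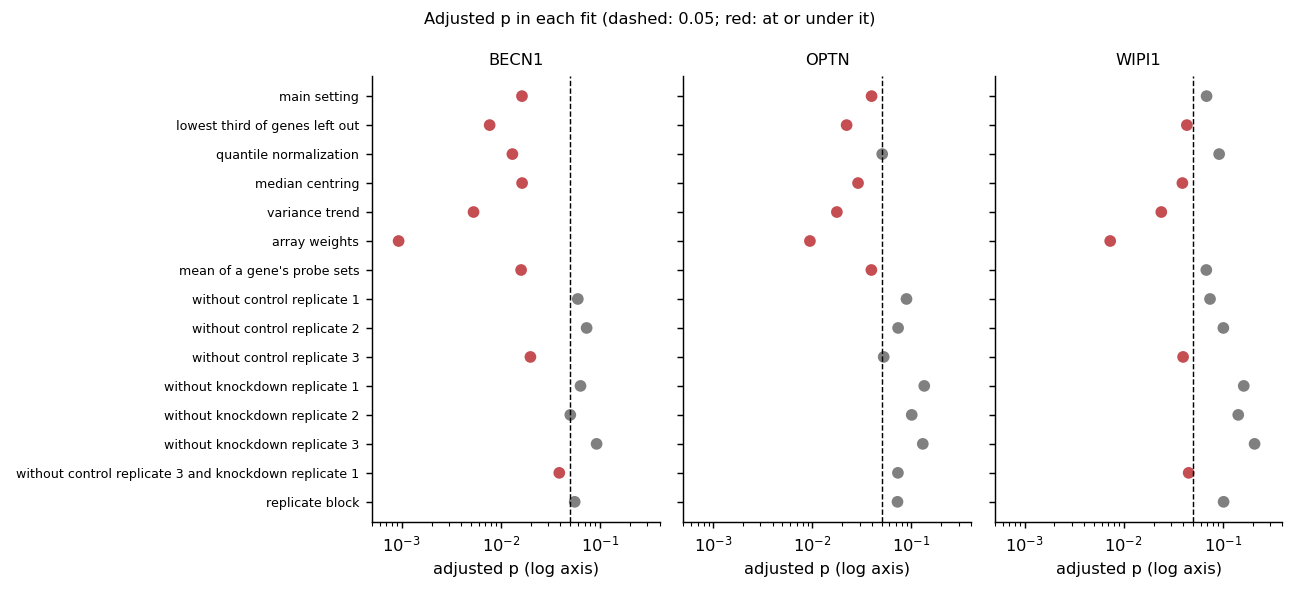
Adjusted p from limma for BECN1, OPTN and WIPI1 in the main setting and 14 alternatives, on a log axis, with the threshold of 0.05 dashed. BECN1 and OPTN cross the threshold when single arrays are left out, and WIPI1 passes without control replicate 3 (0.0397) but not without any other single array.

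The wider pathway, a list of 55 other autophagy genes of which 52 were measured singly, gave 2 genes that fell (3.85%, beside 3.05% of all genes called), none that rose and 50 that did not pass (limma). At an unadjusted p under 0.05, 12 were lower and 4 higher, which is 23.1% and 7.69% of them, beside 9.23% and 10.1% of all genes. TMEM41B, a scramblase of the endoplasmic reticulum that early autophagosomes need, read 10.34, 10.38 and 10.53 in control and 9.85, 9.94 and 9.98 in the knockdown. It fell by 0.49 ± 0.07 (SE; limma, adjusted p = 0.0157), and all knockdown arrays were far below control. RETREG1 (FAM134B), a receptor for turnover of the endoplasmic reticulum, read 8.89, 8.93 and 8.96 in control and 8.44, 8.59 and 8.51 in the knockdown. It fell by 0.41 ± 0.06 (SE; limma, adjusted p = 0.0176). TMEM41B was not called once control replicate 2 (adjusted p = 0.0557) or knockdown replicates 1, 2 and 3 (0.0655, 0.0502 and 0.0737) were left out in turn, and RETREG1 was not without control replicate 2 (0.0710) or knockdown replicates 1 and 3 (0.0638 and 0.0983). RETREG1 did not pass, at 0.0545, with control replicate 3 and knockdown replicate 1 both left out. None of the 52 was called when knockdown replicate 1 or 3, or control replicate 2, was left out. PRKAA2, a catalytic subunit of the energy sensor AMPK, was just outside the threshold at -0.41 (adjusted p = 0.0518), while its paralog PRKAA1 was at 0.0089.

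The selective receptors and mitophagy genes of this list were mostly on the low side. Of 13 measured, 8 were lower with no overlap between groups and none was higher, beside 12.7% and 14.3% of all genes; 1, RETREG1, was called. Those lower with no overlap included the mitophagy receptor gene BNIP3 (-0.18), the mitochondrial kinase gene PINK1 (-0.24), the aggregate adaptor gene WDFY3 (-0.24), TAX1BP1 (-0.16) and TOLLIP (-0.14). Groups overlapped for TEX264 (0.13), FUNDC1 (0.08), CALCOCO2 (-0.03), TBK1 (-0.06) and NCOA4 (-0.11). With OPTN, NBR1 and SQSTM1 this made 11 of 16 receptor and mitophagy genes. Without any 1 array it was 11 to 13 of 16, when up to 1 was higher. OPTN, NBR1 and SQSTM1 had already been counted as lower with no overlap, and the lists were chosen with earlier results known. The pooled count therefore adds no separate support. Without 1 array, 14.8% to 19.6% of all genes were lower with no overlap and 17.8% to 23.6% higher. In contrast, genes of the fusion step lay on both sides: the SNARE genes STX17 (0.28) and VAMP8 (0.15) and the tether subunit gene VPS39 (0.16) were higher and VPS33A (-0.20) lower, none of them passing.

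Lysosomal genes, where autophagy ends, were examined as 49 listed genes, 45 of them measured singly. ATP6V0A1, a membrane subunit of the proton pump, read 11.44, 11.48 and 11.47 in control and 10.92, 11.01 and 11.07 in the knockdown. It fell by 0.46 ± 0.06 (SE; limma, adjusted p = 0.0120), no gene of the list rose, and 44 did not pass; 1 of 45 called is 2.22%, beside 3.05% of all genes. At an unadjusted p under 0.05, 4 were lower and 6 higher, which is 8.89% and 13.3% of them, beside 9.23% and 10.1% of all genes. It was not called when knockdown replicate 1 (adjusted p = 0.0506) or 3 (0.0576), or control replicate 2 (0.0561), was left out. Of 20 hydrolases 8 were higher with no overlap (40.0%, beside 14.3% of all genes) and 2 lower (10.0%, beside 12.7%), with the cathepsin genes CTSL at 0.26 (adjusted p = 0.0575) and CTSD at 0.21 the largest. Of 12 proton pump subunit genes 10 had negative values (83.3%, beside 40.4% of all genes), 4 of them with no overlap (33.3%, beside 12.7%). The other 2 were higher with no overlap (16.7%, beside 14.3%). These hydrolase and pump genes all lie outside the lowest 33.3% of genes by mean level. Over the 12278 genes there, 16.9% were lower and 16.2% higher with no overlap, and 44.9% had negative values.

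**Figure D4:**
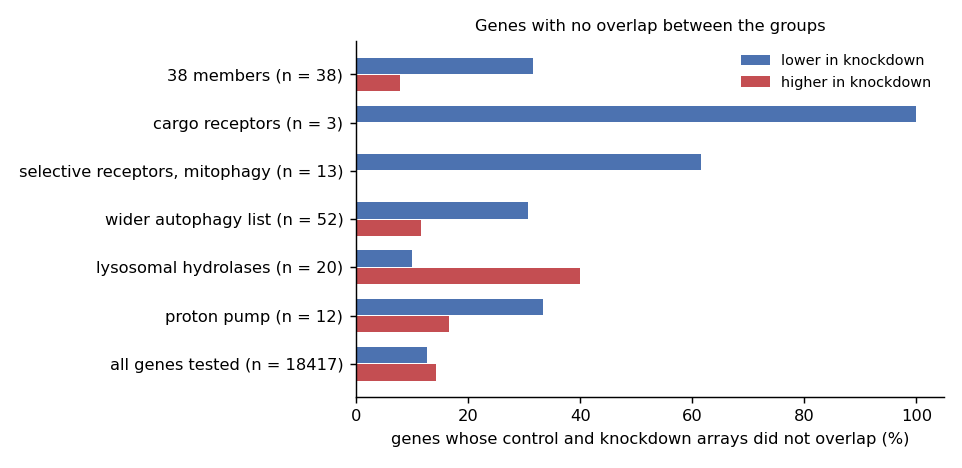
Share of genes, in percent, whose 3 control and 3 knockdown arrays did not overlap, by direction, for the members, groups of autophagy and lysosome genes, and all genes tested. Lower genes make up 31.6% of the 38 members and 12.7% of all genes; higher genes make up 40.0% of the hydrolases and 14.3% of all genes.

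BECN1, NBR1 and ATP6V0A1 lie near each other on chromosome 17. In RefSeq's order 18 tested genes separate ATP6V0A1 from BECN1 and 12 separate BECN1 from NBR1. The 30 other genes of that stretch had a median difference of -0.06, 21 were negative, and values ran from -0.24 to 0.20. ATP6V0A1, BECN1 and NBR1 each had a lower value than any of those 30. The 38 genes nearest to BECN1 had a median of -0.07 with 27 negative, and those nearest to NBR1 -0.06 with 24 negative. Around ATG14 on chromosome 14 the median was -0.12 with 30 of 38 negative, and around TMEM41B on chromosome 11 it was -0.10 with 29 of 38, while around OPTN on chromosome 10 (0.01), WIPI1 on chromosome 17 (0.08) and RETREG1 on chromosome 5 (0.03) it was near that of all genes or above. The part of these neighbourhoods in the members' values was not tested.

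**Figure D5:**
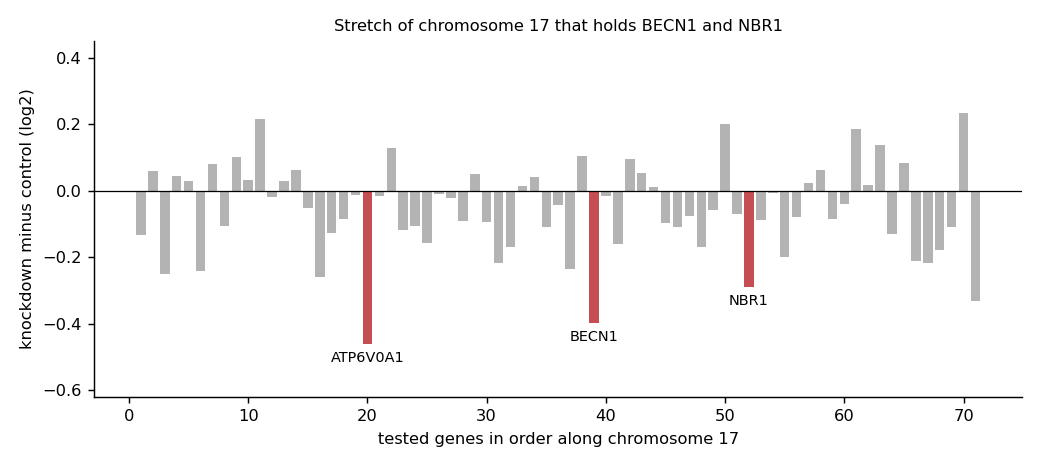
Difference between knockdown and control on the log2 scale for tested genes in order along chromosome 17, from 19 genes before ATP6V0A1 to 19 after NBR1. ATP6V0A1 (-0.46), BECN1 (-0.40) and NBR1 (-0.29), in red, are lower than the 30 other genes that lie between ATP6V0A1 and NBR1.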

How the data were processed

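Biotin-labelled total RNA was hybridised to single-colour arrays, per the labels. The authors deposited 1 log2 value per probe set and array, already summarised and scaled; the method is not given in the sources used here, and the log base was inferred from the range, 2.13 to 14.8. No detection call was used, and precision is limited by there being 3 arrays per group. Of 33297 probe sets, 19460 name 1 gene, 1754 several and 12083 were unnamed; symbols were updated through Entrez numbers in RefSeq (GRCh38.p14; 19429 matched), leaving 18417 genes. Testing used lmFit and eBayes of limma 3.58.1 under R 4.3.3, two-sided, with neither trend nor covariate, and the steps were tested on simulated data. Every member could be named; full statistics went to MAP1LC3B, WIPI1, BECN1, called members and the 4 largest differences on each side, with array values of other members whose groups did not overlap added after seeing them. From the 2 other lists, genes past the threshold were to be named; further ones were chosen after their values were seen. Neighbours are the 19 tested genes on each side. The members and lists were chosen with earlier results of these data known. Alternatives were quantile normalization, median centring, a variance trend, array weights, a low-value filter, averaged probe sets, left-out arrays and a replicate block.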

Additional observations from a re-analysis of the deposited data

How the results depend on the processing

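Across 14 alternatives BECN1, OPTN and WIPI1 stayed negative, and 26 of the 38 members kept their sign in all of them; MAP1LC3B ran from -0.0077 (without knockdown replicate 1) to 0.066 (without control replicate 3). The count of called members, 2 in the main setting, was 4 with the lowest 33.3% of genes left out, 1 after quantile normalization, 4 with a variance trend and 8 with array weights (7 lower; ULK2 higher), and 0 to 2 with 1 array left out. The members' median was -0.02, beside 0.0308 for all genes. After median centring, which shifts the difference of every gene by the same amount, it was -0.040, beside 0.0105 for all genes. With array weights it was -0.051, beside 0.0192. With 1 array left out it ran from -0.047 to -0.0039, beside 0.0137 to 0.0388 for all genes. Leaving out both control replicate 3 and knockdown replicate 1 gave -0.036, beside 0.0162. In the wider list, 2 calls became 4 with a variance trend, 15 with array weights and 0 to 3 with 1 array left out; in the lysosome list, 1 became 3 with the lowest 33.3% left out, 4 with a variance trend, 10 with array weights and 0 to 1 with 1 array left out. Over all genes, 562 calls became 972, 1083 and 3328 in those 3 settings, 44 to 535 with 1 array left out and 343 with both arrays left out. Members lower with no overlap, a count added after seeing the data, numbered 12 to 16 with 1 array left out, and members higher 3 to 7, beside 17.8% to 23.6% of all genes; with both left out 8 (21.1%) were higher, beside 28.9% of all genes, and 16 (42.1%) lower, beside 24.5%. The replicate numbers are not stated to pair the samples. Arrays of the same number had correlations of -0.246, 0.122 and 0.0877 between their deviations from the group means. Not every array correlated best with its own number, but with 3 arrays per group these values cannot settle whether the samples were paired. With the replicate block, 0 members were called, BECN1 at 0.0557 and OPTN at 0.0725, beside 1 gene of the wider list and 217 of all genes. In that fit 9 members were lower at an unadjusted p under 0.05, with the share of all genes not counted. Except where the construction differs (fewer genes or arrays, or the equal shift of median centring), the cause was not tested.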
